A study of Mus musculus with 5 samples.

Results

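Nr1d1 (REV-ERBα) binding was examined at 10 regulator genes of the Th2, Th17 and regulatory T cell (Treg) programmes in mouse Th1 cells: Maf, Tgfb1, Gata3, Foxp3, Batf, Ahr, Stat3, Stat6, Irf4 and Ikzf2. They were taken by gene symbol from the annotation tables of the peak lists and stand beside 21887 protein-coding genes. The 3 tables held 16 entries for them, of 51163. All cells were naive CD4 T cells from secondary lymphoid organs of wild-type C57BL/6 mice aged 4 to 6 weeks. They were activated with antibodies to CD3 and CD28, driven to the Th1 fate by IL-12 and IFNγ while IL-4 was blocked by an antibody, and harvested after 3 to 4 days. The series held 3 libraries from an Nr1d1 pull-down, 1 IgG mock pull-down and 1 input DNA library. Groups came from the titles, since the label for the antibody is the same in all 5 libraries. Peak lists hold no expression, so the Th1 label could not be checked against marker levels, and no library of Th2, Th17 or Treg cells was analysed here.

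Nr1d1 is a heme-binding nuclear receptor that lacks the activation helix of its relatives and represses its targets through the NCoR-HDAC3 corepressor. It binds an AGGTCA core with an A/T-rich flank, the element also used by the ROR receptors, among them the RORγt factor of Th17 cells. The genes examined direct the T helper fates that Th1 differentiation is set against. GATA3, STAT6 and c-Maf act in Th2 cells, STAT3, BATF, IRF4 and the aryl hydrocarbon receptor in Th17 cells, and FOXP3 and Helios (Ikzf2) in Treg cells. TGF-β1 is the secreted cytokine that is needed for induced Treg and Th17 cells.

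Peaks over the input were deposited for each antibody as a whole, 19586 for the ChIP and 17111 for IgG, with a further list of the 14471 ChIP peaks that overlap no IgG peak, called ChIP-specific here. All lists share the 1 input library. No value is given per library, so there is no replicate error, no read depth and no test over samples, and a list's FDR describes peaks within that list. Values below are thus positions, lengths and the authors' FDR of single peaks.

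Regulatory sequence upstream of 4 start sites is shown to place the results that follow. The promoter table from RefSeq (GRCm38.p6) matched 7 of the 10 genes with 8 windows of 250 bases before and 50 after a start site. None of the 8 windows overlapped a ChIP or an IgG peak. Maf, Ahr and Ikzf2 had no window, though IgG peaks were centred 244, 86 and 136 bp upstream of their RefSeq starts. A ChIP peak was also centred 186 bp upstream of the Ikzf2 start. The absence of overlap thus holds for the matched genes only, and the share of all windows over a peak was not analysed. Tgfb1 is printed because it had the ChIP-specific peak nearest to a start among the 10 genes. Stat6 and Foxp3 are printed because their windows held the receptor core, and Ppp1r3f because its promoter carried the peak nearest to Foxp3. Each run is the 250 bases before the start, 5′ to 3′ on the gene's strand. Capitals mark AGGTCA or its complement in Stat6 and Foxp3 and the bases under the ChIP peak in Ppp1r3f.
Tgfb1, plus strand, chr7:25686752-25687001: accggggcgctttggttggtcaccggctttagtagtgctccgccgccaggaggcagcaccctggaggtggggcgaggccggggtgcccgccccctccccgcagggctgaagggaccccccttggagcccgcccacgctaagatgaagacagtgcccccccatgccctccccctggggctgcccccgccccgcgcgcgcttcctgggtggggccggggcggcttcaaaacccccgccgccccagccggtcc
Stat6, plus strand, chr10:127642736-127642985: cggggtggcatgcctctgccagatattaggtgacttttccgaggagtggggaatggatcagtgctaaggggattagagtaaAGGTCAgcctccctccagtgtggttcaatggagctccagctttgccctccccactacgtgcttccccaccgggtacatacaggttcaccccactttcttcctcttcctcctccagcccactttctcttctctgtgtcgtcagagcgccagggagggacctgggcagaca
Foxp3, inner of its listed starts, plus strand, chrX:7580233-7580482: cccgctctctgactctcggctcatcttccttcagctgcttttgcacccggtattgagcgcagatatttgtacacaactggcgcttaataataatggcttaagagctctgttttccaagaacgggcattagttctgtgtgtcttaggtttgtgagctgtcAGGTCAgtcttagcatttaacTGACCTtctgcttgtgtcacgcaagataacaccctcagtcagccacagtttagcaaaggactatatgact
Ppp1r3f, minus strand, chrX:7574282-7574531: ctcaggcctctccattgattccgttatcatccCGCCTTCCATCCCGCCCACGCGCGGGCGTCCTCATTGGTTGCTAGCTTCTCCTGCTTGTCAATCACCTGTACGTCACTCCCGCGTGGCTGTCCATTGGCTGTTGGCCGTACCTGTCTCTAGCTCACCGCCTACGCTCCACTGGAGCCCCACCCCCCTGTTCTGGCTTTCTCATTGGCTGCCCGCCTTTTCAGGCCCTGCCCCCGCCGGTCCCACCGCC

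The motifs searched on both strands of the 300-base windows were AGGTCA, the RORE (AGGTCA preceded by T and A-rich bases), the RevDR2 repeat of AGGTCA and the E-box CACGTG. The repeat and the RORE both contain AGGTCA. Stat6 had AGGTCA from 169 to 164 bases before its start. Foxp3 had it before the inner start, from 91 to 86 bases before it on the gene's strand and from 70 to 65 bases before it on the other strand. AGGTCA was found in 16.3% of all 32851 windows, the RORE in 0.219%, the repeat in 0.00913% and CACGTG in 7.15%. The last 3 motifs were in none of the 8 windows of these genes. Windows for Maf, Ahr and Ikzf2 were not analysed here, nor was the sequence under peaks outside the windows.

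Of the 10 regulators, 4 carried a peak of either antibody, and the ChIP peaks at the starts of Maf and Ikzf2 lay over IgG peaks. By the authors' nearest-gene annotation, 3 of the 10 had a ChIP peak, Maf, Tgfb1 and Ikzf2, against 22.0% of all protein-coding genes. Maf and Tgfb1 were the 2 with a ChIP-specific peak, against 17.5% of all genes. With IgG 3 had a peak, Maf, Ahr and Ikzf2, against 17.1%. With 10 genes these counts lie near those shares. The other 6, Gata3, Foxp3, Batf, Stat3, Stat6 and Irf4, were assigned no peak of either antibody. The share of all genes with a peak of either antibody was not analysed, so the 4 and the 6 are descriptions only. The 4 genes with a peak held 6 ChIP peaks, of which 4 were ChIP-specific and 2 lay over an IgG peak, and 6 IgG peaks. In the whole ChIP list 5115 of 19584 annotated peaks lay over an IgG peak. By class the ChIP peaks were 3 intergenic, 2 promoter and 1 exonic, and the IgG peaks 2 intergenic, 3 promoter and 1 exonic. Over the whole ChIP and IgG lists 56.4% and 59.7% of peaks were intergenic, 6.37% and 5.46% promoter, and 4.95% and 4.11% exonic. With 6 peaks per antibody the classes were not compared.

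**Figure D1:**
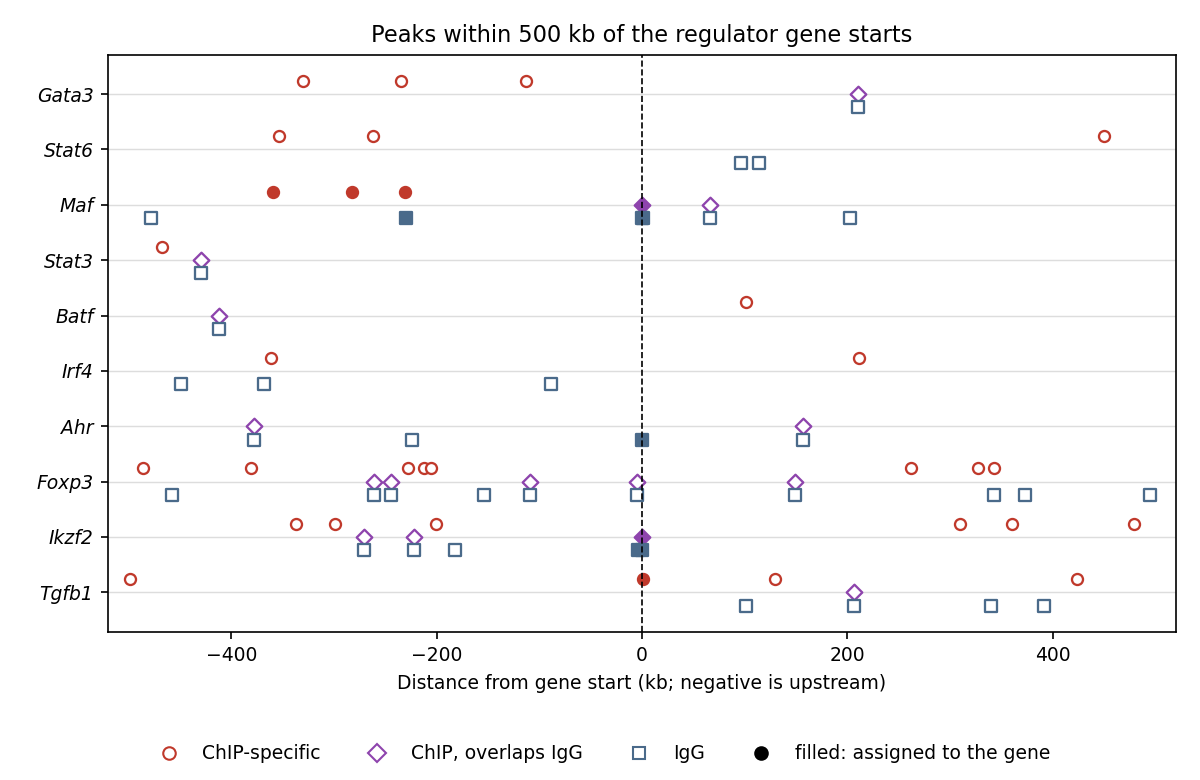
Peaks within 500 kb of the start of each regulator gene, with distance in kb along the gene's direction of transcription on the x axis and a gene per row. Circles are ChIP-specific peaks, diamonds ChIP peaks over an IgG peak, and squares IgG peaks, filled where the authors assigned the peak to that gene. The filled circles are 3 far upstream of Maf and 1 at Tgfb1, and the filled symbols at the starts of Maf, Ikzf2 and Ahr are shared or IgG peaks.

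Maf, which encodes c-Maf, the bZIP activator of Il4 in Th2 cells, had the most assigned peaks of the 10 genes. Assignment is by nearest start, and the stretch between its coding neighbours is 1152303 bp long. Within 500 kb of its start Maf had 3 ChIP-specific peaks, the same as the median over all genes. Its 4 ChIP peaks fell in 2 places, at the gene and far upstream. The ChIP peak in the gene was exonic, 684 bp downstream of the transcription start in the authors' annotation (chromosome 8, 115706276 to 115706549, mm10, minus strand, FDR 0.00837). An IgG peak with an FDR printed as 0 covered all 274 of its bases (115706226 to 115706549), so it is not ChIP-specific. The promoter itself had an IgG peak alone, 41 bp upstream of the start (115707026 to 115707249, FDR printed as 0), and the nearest ChIP peak was 476 bp from it. Every peak within 2 kb of the Maf start was thus an IgG peak or lay over one.

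The 3 ChIP-specific peaks of Maf were intergenic and spanned 129474 bp. They lay 229506, 281281 and 358781 bp upstream of the start of a second Maf transcript, which begins further upstream than the one above. The nearest of them was 100 bp long, the shortest length in the lists, with an FDR of 0.0288 (115937251 to 115937349), and 80.9% of ChIP-specific peaks had a lower FDR. An IgG peak ended 151 bp from it (115936851 to 115937099, FDR 0.00148), so its place in the ChIP-specific list rests on that gap. The other ChIP-specific peaks were longer, 250 bp (115988951 to 115989199) and 300 bp (116066426 to 116066724), both with an FDR of 0.0102 and with no IgG peak nearer than 51851 and 118351 bp. Between Maf and the farthest of them RefSeq lists 6 lncRNA genes and 0 protein-coding genes, and the next coding gene on that side, Dynlrb2, starts 798121 bp from Maf.

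Tgfb1 was the gene whose ChIP-specific peak lay nearest to it. The peak was 125 bp long, with an FDR of 0.0179 (chromosome 7, 25688201 to 25688324, plus strand), and 59.3% of ChIP-specific peaks had a lower FDR. The authors class it as promoter, 665 bp upstream of a transcript start that lies 1926 bp inside the gene by RefSeq. Counted from the RefSeq start of Tgfb1 the same peak lies inside the gene, from 1199 to 1322 bp downstream, and outside the promoter window printed above. The nearest IgG peak was 100126 bp away from it, at the promoter of Axl, a receptor tyrosine kinase. Tgfb1 lies in a dense stretch, 440 bp from B9d2 and 6035 bp from Ccdc97, and this was the peak found between those coding neighbours.

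Ikzf2, the gene of Helios, a zinc finger factor of the Ikaros family, had a promoter peak with both antibodies. The ChIP peak lay 292 bp upstream of the transcription start (chromosome 1, 69687376 to 69687699, minus strand, FDR 0.00669) and the IgG peak 242 bp upstream (69687326 to 69687649, FDR 0.00212). They shared 274 bp, 84.6% of each. A second IgG peak with an FDR printed as 0 lay 3830 bp upstream (69690926 to 69691224) and had no ChIP peak over it. The ChIP-specific peak nearest to the Ikzf2 start was 200999 bp upstream, in an intron, with Gm22665 as the nearest start and inside the RefSeq gene Spag16.

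Ahr, a ligand-activated bHLH-PAS factor that promotes Il22 expression, had a peak with IgG and none with the Nr1d1 antibody. The IgG peak sat 37 bp upstream of the transcription start (chromosome 12, 35535001 to 35535149, minus strand, FDR 0.00155). The ChIP peak closest to Ahr lay at 156302 bp and matched an IgG peak, both at 35378576 to 35378799. The nearest ChIP-specific peak was 714911 bp away, the farthest among the 10 genes, and 97.2% of coding genes had one nearer.

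**Figure D2:**
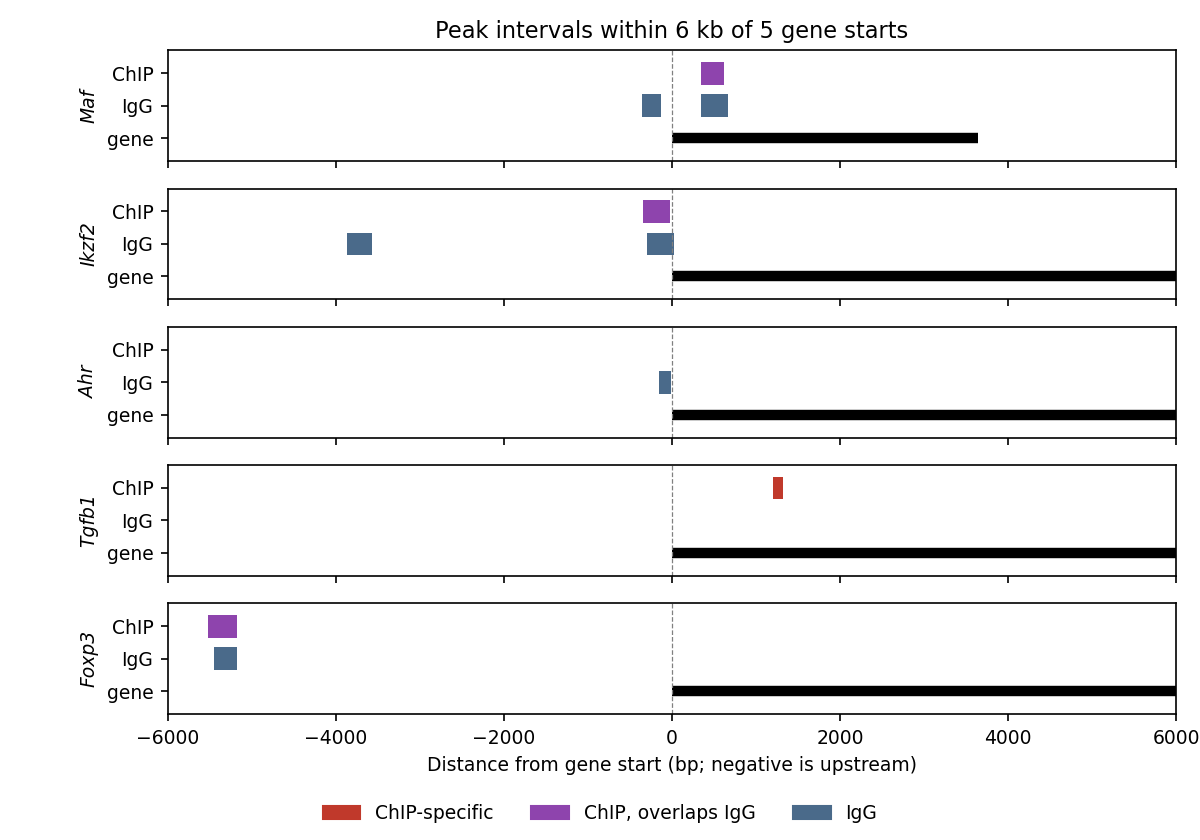
Peak intervals within 6 kb of the RefSeq starts of Maf, Ikzf2, Ahr, Tgfb1 and Foxp3, with distance in bp along the direction of transcription on the x axis. Black bars are gene bodies, cut at 6 kb, and coloured bars are ChIP-specific, shared ChIP and IgG peaks. Tgfb1 has the ChIP-specific interval, centred 1260 bp downstream of the start, and the ChIP intervals at Maf, Ikzf2 and Foxp3 each lie over an IgG interval.

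Foxp3, the lineage factor of Treg cells, was assigned no peak, but a peak of each antibody lay close by. The ChIP peak was 5351 bp upstream of the Foxp3 start and was annotated to the promoter of Ppp1r3f, a glycogen-targeting subunit of protein phosphatase 1 that is transcribed away from Foxp3 (X, 7574151 to 7574499, FDR 0.00189). RefSeq also places Flicr, a noncoding RNA gene next to Foxp3, over this peak. The IgG peak there (7574226 to 7574499, FDR 0.000934) lay wholly within it. Both covered the 218 bases nearest to the Ppp1r3f start in the run printed above. The nearest ChIP-specific peak was 205251 bp from Foxp3, in an exon of Usp27x. Within 500 kb of Foxp3 there were 13 ChIP and 10 IgG peaks, the most among the 10 genes for each antibody, and 8 of the former were ChIP-specific. The medians over 17495 coding genes were 5 ChIP, 3 IgG and 3 ChIP-specific peaks, with upper quartiles of 8, 6 and 6.

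Gata3, the lineage factor of Th2 cells, had its nearest ChIP-specific peak 112472 bp upstream of the RefSeq gene start, in an intron of its neighbour Taf3 (chromosome 2, 10000301 to 10000549, FDR 0.00297). The start in the promoter table is 9353 bp further inside Gata3. The stretch between its coding neighbours Celf2 and Taf3 is 2518211 bp long and held 14 ChIP-specific and 12 IgG peaks, all assigned to gene models named Gm or RP23. The nearest IgG peak was 209903 bp from the gene.

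Stat6 transduces IL-4 signals, and Stat3 those of IL-6 and IL-23. BATF and IRF4 bind composite elements together in activated T cells. These 4 genes, Stat3, Stat6, Batf and Irf4, had 0 ChIP and 0 IgG peaks between their nearest coding neighbours, stretches of 71567, 55917, 106661 and 78284 bp. Such an empty stretch was found for 57.0% of 21837 coding genes, against 4 of these 10. The median stretch was 77816 bp over all of those coding genes and 47447 bp over the ones with an empty stretch. The nearest ChIP-specific peaks were at the termination site of Aarsd1 for Stat3, 467031 bp from the start, and in an intron of R3hdm2 for Stat6, 261830 bp away. For Batf it was 101242 bp away in an intron, inside the RefSeq gene Flvcr2 and assigned to 0610007P14Rik by nearest start, with an FDR of 0.0263, and for Irf4 it was 211554 bp away in an intron of Exoc2, with an FDR of 0.00887. An IgG peak was nearer than these at Irf4 (88970 bp, annotated to Dusp22), at Stat6 (96645 bp, promoter of Zbtb39) and at Stat3 (429806 bp, intron of G6pc). At Batf the nearest IgG peak was farther, at 412120 bp.

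Distances from a gene start to the nearest peak centre do not depend on which gene a peak was assigned to. For ChIP-specific peaks the median over the 10 genes was 208403 bp, from 1260 bp at Tgfb1 to 714911 bp at Ahr, and 8 of the 10 lay beyond the median of 108678 bp over 17495 coding genes with a known strand. For IgG peaks the median was 92808 bp, from 86 bp at Ahr to 429806 bp at Stat3, against 117314 bp over all genes. For all ChIP peaks it was 106857 bp, against 75704 bp. An IgG peak lay nearer than any ChIP-specific peak at 7 of the 10 genes, against 48.3% of coding genes. The exceptions were Tgfb1, Gata3 and Batf. Among the 7, Maf, Ahr and Ikzf2 have a known strand only because they have peaks, and the others were Foxp3, Stat3, Stat6 and Irf4. The coding genes compared did not enter through their peaks, so this count and the medians above are not like for like with them. No test was made of these medians, since the genes were chosen with earlier results known.

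**Figure D3:**
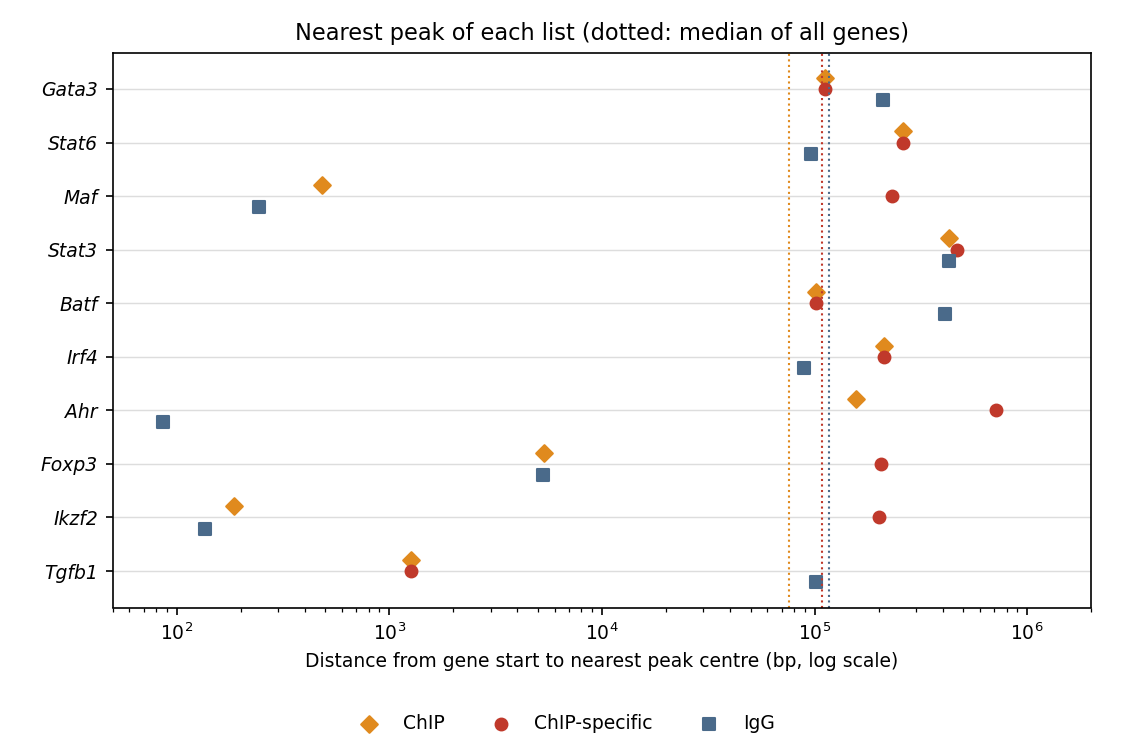
Distance in bp, on a log scale, from the start of each regulator gene to the centre of the nearest ChIP, ChIP-specific and IgG peak. Dotted lines are the medians over 17495 coding genes, 75704, 108678 and 117314 bp. ChIP-specific peaks lie beyond 100 kb for 9 of the 10 genes, with Tgfb1 at 1260 bp.

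Fixed windows gave counts by distance, whichever gene a peak was assigned to. A ChIP peak centre lay within 2 kb of the start of 3 genes, Maf, Tgfb1 and Ikzf2, against 7.10% of coding genes, a ChIP-specific one at Tgfb1 alone, against 4.56%, and an IgG one at Maf, Ahr and Ikzf2, against 5.21%. The 2 kb window was chosen after these distances had been seen. In addition, Maf, Ahr and Ikzf2 have a strand, and so a start, only because they have peaks. Other coding genes without a strand were left out, so counts from a start are not like for like with those shares. In the gene body or within 5 kb of it, the ChIP, ChIP-specific and IgG lists gave 3, 1 and 3 genes, against 21.6%, 16.8% and 15.9%. Within 50 kb of the start they gave 4, 1 and 4, against 38.6%, 29.7% and 28.6%, and within 100 kb 4, 1 and 6, against 58.9%, 47.7% and 45.3%. The ChIP-specific gene was Tgfb1 in each of these windows, and Maf was lost because its ChIP-specific peaks are over 100 kb away. Within 500 kb the genes had 0 to 8 ChIP-specific peaks, median 3, the same median as over all genes.

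The 4 ChIP-specific peaks at these genes had FDR values from 0.0102 to 0.0288, with the median of their list at 0.0146. The peaks of Maf at 0.0102 had 29.7% of the list at a lower FDR and lay just above 0.01, while the other 2 lay above the median. With peaks kept at an FDR of 0.01 or less, 0 of the 10 genes had an assigned ChIP-specific peak, against 7.67% of all genes, 2 had a ChIP peak, against 13.0%, and 3 an IgG peak, against 12.0%. When a ChIP peak counted as specific with under 50% of its bases over an IgG peak, Maf and Tgfb1 were again the 2 genes, against 18.1%. They were so too when no IgG peak was allowed within 1 kb, against 17.2%.

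Among other genes of the Th2, Th17 and Treg programmes, ChIP-specific peaks were assigned to the cytokine genes Il5, Il17a and Il17f and to Prdm1 and Tgfbr2. Of 14 further Th2 genes 1 had a ChIP-specific peak, Il5, the eosinophil growth cytokine, in an intron 1231 bp from the start (FDR 0.00934), and 0 had an IgG peak. Of 14 further Th17 genes 2 had a ChIP-specific peak. The peak of Il17f was intronic, 642 bp downstream of the start (FDR 0.0326), and that of Il17a intergenic, 17493 bp upstream (FDR 0.0088). Rora, the gene of the ROR receptor that acts with RORγt, had 4 ChIP peaks, each of them over an IgG peak, and 8 IgG peaks. Of 16 further Treg genes 2 had a ChIP-specific peak. Prdm1, the gene of the repressor BLIMP-1, had an intergenic one 46012 bp downstream of its start (FDR 0.00887). Tgfbr2, the TGF-β receptor subunit that binds the ligand encoded by Tgfb1, had one 232287 bp upstream (FDR 0.0296) beside 2 ChIP peaks over IgG peaks. The remaining 13, 11 and 14 genes of the 3 lists had no peak of either antibody, a count for which the share of all genes was not analysed. The shares with a ChIP-specific peak were 7.14%, 14.3% and 12.5% for the Th2, Th17 and Treg lists, below the 17.5% of all coding genes. Those with an IgG peak were 0%, 7.14% and 6.25%, below 17.1%. No test was made of these shares. Each rests on 0 to 2 genes of 14 or 16, so no lack of peaks in these programmes follows.

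**Figure D4:**
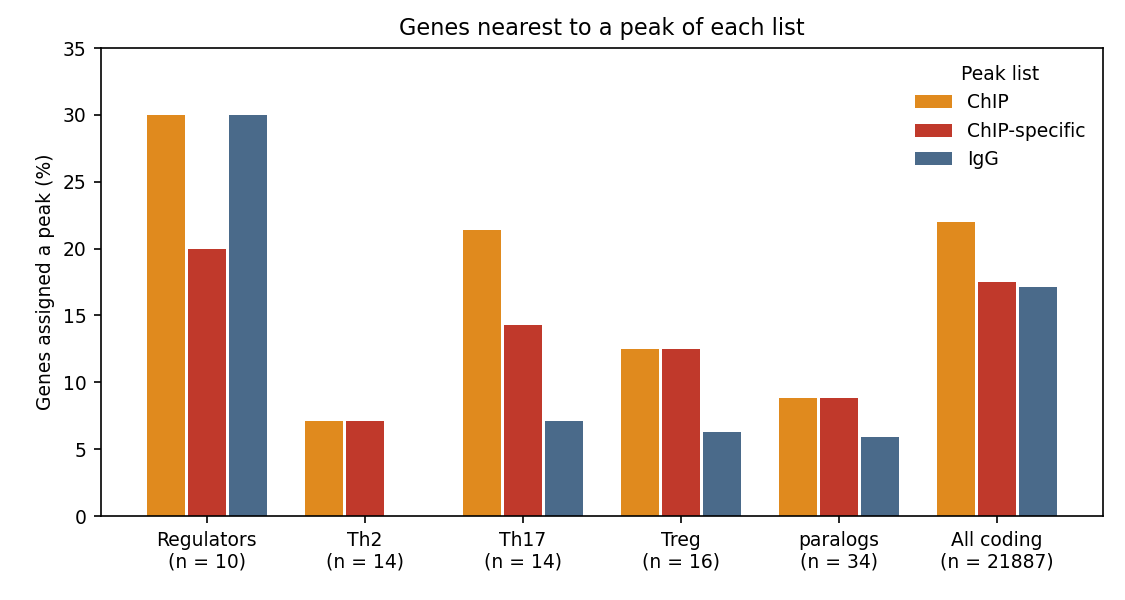
Percentage of genes assigned a ChIP, ChIP-specific or IgG peak, as bars from 0, for the 10 regulators, the other Th2, Th17 and Treg genes, paralogs of the regulators and all 21887 coding genes. The regulators stand at 30.0%, 20.0% and 30.0%, and all coding genes at 22.0%, 17.5% and 17.1%.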

How the data were processed

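Peak lists of Nr1d1 ChIP (3 libraries) and IgG mock (1 library), each over 1 input library, were used as deposited. Build mm10, BWA and HOMER are named in the submitters' processing notes. A peak caller, its settings and any pooling of libraries were not given in the sources used here. Each peak's q-value was deposited by the authors as an FDR with 6 decimals, at most 0.05. The score in the tables deposited by the authors equalled the peak length in bp for every annotated peak, and lengths were multiples of 25 bp. Distances and classes are those of the deposited annotation. Annotation was missing for 2 ChIP peaks and 1 IgG peak, which were left out.

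Positions were compared with numpy 2.4.6 and pandas 2.3.3 (Python 3.11.15, figures with matplotlib 3.10.9), and this code was tested on simulated intervals. Gene bodies came from RefSeq (GRCm38.p6), and a gene start is the end of the RefSeq gene at which transcription begins. Strand came from the promoter table for 7 of the genes and, for Maf, Ahr and Ikzf2, from the sign of the authors' distances, so these 3 have a strand because they have peaks. The all-gene comparisons of distance used 17495 of 21887 coding genes, the 4392 others having no strand. Distances of a peak to the gene it was assigned to are the authors', from the transcript start they used, unless the RefSeq start is named. Distances to the nearest peak of a list run from the RefSeq start to the peak centre. Every regulator gene is named. Of the other lists the genes with a peak may be named, and 1 item is not reported here. The members and lists were chosen with earlier results of these data known, so counts are descriptions, with no test. Alternatives changed the gene assignment, the FDR and the overlap that counts as shared.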

Additional observations from a re-analysis of the deposited data

How the results depend on the processing

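The counts of regulators with a ChIP peak stayed within 1.5 times of 3 in the 5 alternatives tried, from 2 to 4. The share of all genes moved far more, from 7.10% within 2 kb, with 3 regulators, to 58.9% within 100 kb, with 4. A steady count is thus not a steady position against all genes. The count with a ChIP-specific peak moved from 2 to 1 when a peak had to lie within 5 kb of the gene body, within 2 kb, within 50 kb or within 100 kb of the start, because the Maf peaks lie farther away, and to 0 at an FDR of 0.01 or less, a threshold that 2 Maf peaks at 0.0102 missed narrowly. It stayed at 2 under both other overlap rules. The all-gene shares for these alternatives, given above, ran from 4.56% to 47.7%. The count with an IgG peak moved from 3 to 6 within 100 kb, where the share of all genes rose from 17.1% to 45.3%, and stayed at 3 or 4 otherwise. The regulators' median distance to a ChIP-specific peak moved from 208403 to 553922 bp at an FDR of 0.01 or less. Over all coding genes that median rose too, from 108678 to 284678 bp, and the regulators beyond it fell from 8 to 6. From the gene body's edge the regulators' median was 199398 bp, against 92176 bp over all genes. Their median to an IgG peak remained 92808 bp at that FDR, while the all-gene median rose from 117314 to 186112 bp. From the edge it was 80919 bp for the regulators, against 100865 bp. No library could be left out and no paired analysis was possible because the lists hold no value per library. The depth behind a peak is unknown.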

Other observations

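Paralogs of the 10 regulators were compared as a further gene group. Of 34 paralogs, 3 were assigned a ChIP-specific peak, Mafa, Foxp4 and Ikzf1, and 2 an IgG peak, Gata4 and Foxp2. These are 8.82% and 5.88% of the paralogs, against 17.5% and 17.1% of all coding genes. The other 29 had no peak of either antibody, a count for which the share of all genes was not analysed. Mafa, a large Maf factor of pancreatic beta cells, had a promoter peak 453 bp upstream (chromosome 15, 75748276 to 75748474, FDR 0.00956) and an intergenic one 17472 bp downstream (FDR 0.0198). It had no IgG peak, whereas the promoter peak of Maf itself was seen with IgG alone. Ikzf1, the gene of Ikaros, had an intronic peak 1117 bp from its start (FDR 0.0485), and Foxp4 an intronic peak 3625 bp from its start (FDR 0.0159). The STAT and IRF paralogs were among the 29 without a peak. Over all coding genes 22.0% were assigned a ChIP peak and 17.1% an IgG peak, so genes without one are common. These genes were compared after peaks at the regulators were known, and no difference between gene families was tested.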
